A study of Mus musculus with 16 samples.

Results

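The replication-dependent histone genes encode the core histones H2A, H2B, H3 and H4 and the linker histone H1, which package newly made DNA. They were taken as every gene of the expression table whose symbol begins with Hist and a cluster number from 1 to 4, followed by h. The rule found 7 of the 12321 genes in the table. They are the linker histone gene Hist1h1c, the H2A gene Hist3h2a, the H2B genes Hist1h2bc, Hist2h2be and Hist1h2be, and the H4 genes Hist1h4i and Hist1h4h. The table held no H3 gene under such a symbol. RNA was sequenced from LKR10 cells, a line from a mouse lung adenocarcinoma, in 16 libraries. There were 4 groups of 4 libraries: shAnkrd35 in 3D, shGFP in 3D, shAnkrd35 in 2D and shGFP in 2D. All cells had been transduced with a pLKO lentivirus and selected with puromycin (4 µg/ml, 48 h), then grown for 96 h. The vector carried a short hairpin RNA against Ankrd35, an ankyrin repeat domain gene, or against GFP as the control. Cells in 3D were held in 0.5% methylcellulose, a viscous medium, and cells in 2D grew as a monolayer. The labels name 1 parental line, do not say how many hairpins were used against Ankrd35, and do not say whether replicates were separate cultures. The spread behind each p-value is thus that of these libraries and may be only technical.

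Most messenger RNAs end in a poly(A) tail. The messages of replication-dependent histone genes are the textbook exception: they end just past a short conserved stem-loop, which is bound by the stem-loop binding protein Slbp and cut with the help of the U7 small nuclear ribonucleoprotein. Their level follows DNA synthesis, because transcription, processing and message stability all rise in S phase. Some of these genes can also give longer, polyadenylated messages from a signal further downstream, which is known from differentiated mammalian cells. The libraries were made from RNA enriched on oligo(dT) beads, which bind poly(A) tails. The levels below therefore describe whatever histone RNA passed that step, and they are no measure of the total histone message. In bulk libraries, fewer cells with a message and less message per cell cannot be told apart.

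The stem-loop is shown because it is the element that sets these genes apart from other protein-coding genes. Transcripts of the GENCODE M21 annotation (mm10 genome) were searched on their own strand for the consensus shape of this element: 6 complementary base pairs, the outer 2 G-C and the innermost T-A, around a loop of 4 bases. A match was found in 5 of the 7 genes. Capitals mark the 16 bases of the stem-loop, with 5 flanking bases on each side, 5′ to 3′.
Hist1h1c: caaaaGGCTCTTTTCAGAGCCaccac
Hist3h2a: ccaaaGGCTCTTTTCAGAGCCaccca
Hist1h2be: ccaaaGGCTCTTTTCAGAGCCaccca
Hist1h4i: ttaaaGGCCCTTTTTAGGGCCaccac
Hist1h4h: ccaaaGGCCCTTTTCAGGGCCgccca
The 3 genes Hist1h1c, Hist3h2a and Hist1h2be shared the same 16 bases, and each of the H4 genes had its own. The element began 24 to 41 bases past the stop codon in these 5 genes. Outside the histone symbols, 20 of 21799 protein-coding genes (0.0917%) had a match in the first 150 bases past the stop codon. The annotated transcripts of Hist1h2bc and Hist2h2be held no match to these letters.

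The annotated transcripts of the genes in the table ran far past the stem-loop. They continued for 1861 bases in Hist1h2be, 1643 in Hist3h2a, 840 in Hist1h1c and 330 in Hist1h4i, but for 46 in Hist1h4h. Of the 67 protein-coding genes with such symbols in the annotation, 60 had no row in the table and were not analysed here. Among those 60, 40 had the stem-loop, with a median of 65.5 annotated bases past it (range 3 to 4884), against a median of 840 in the genes of the table. At least 60 bases past the stop codon were annotated in 41 of the 60, and 38 of those 41 had the stem-loop. In the others the element, or a poly(A) signal, may lie past the annotated end. More than 100 bases past the stem-loop were annotated in 4 of 5 genes in the table and in 19 of the 40 others. A poly(A) signal (AATAAA or ATTAAA) lay in the last 50 annotated bases of 6 of the 7 genes in the table, all but Hist1h2bc, and of 11 of the 60 others. Median exonic length was 1560 bases in the table and 529 bases outside it, and median GC content was 45.9% and 59.3%. These are descriptions of annotation, which differs in how far transcripts were traced, and reads were not available by position.

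**Figure D1:**
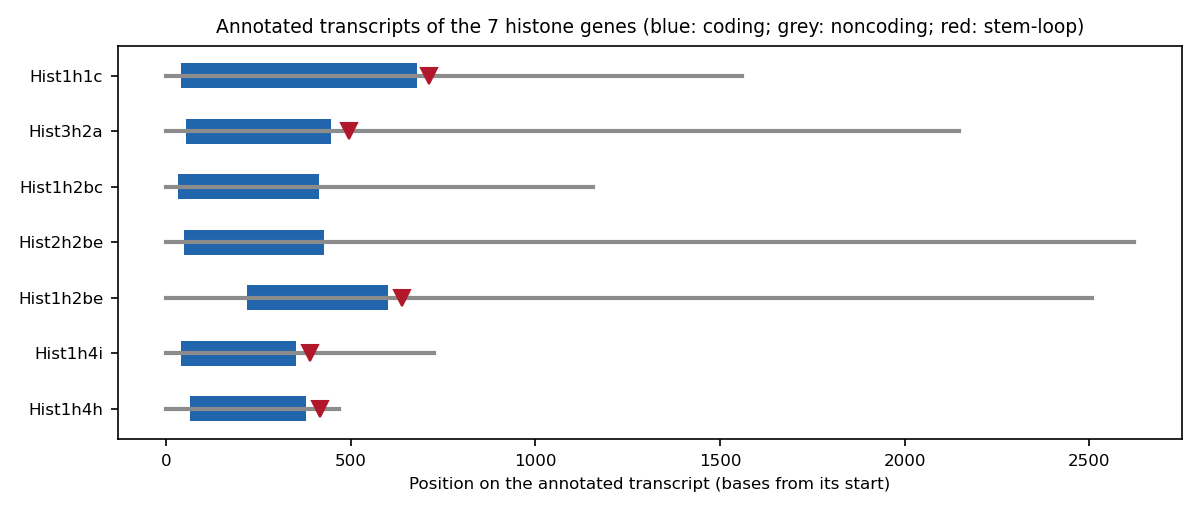
Annotated transcripts of the 7 histone genes, in bases from the transcript start. Blue boxes are coding sequence, grey lines the whole transcript and red triangles the stem-loop, which is absent from the annotated transcripts of Hist1h2bc and Hist2h2be and lies 24 to 41 bases past the stop codon in the other 5 genes.

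**Figure D2:**
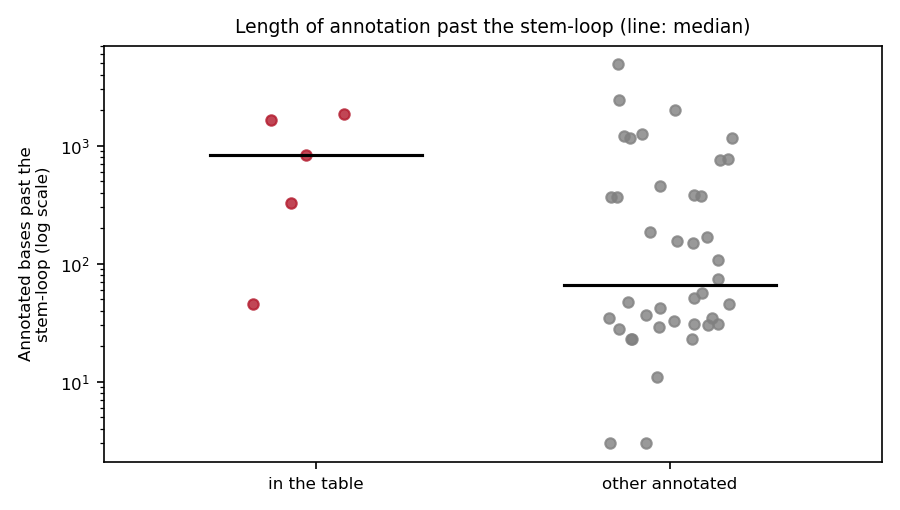
Annotated bases past the stem-loop on a log scale, for the 5 histone genes in the table and the 40 other annotated histone genes that have the stem-loop. Points are genes and lines are medians, 840 bases in the table and 65.5 bases outside it.

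The 7 genes lie at 3 places in the mm10 genome. On chromosome 13, Hist1h1c spans chr13:23738808-23740367 (plus strand) and Hist1h4h chr13:23531050-23531519 (plus strand), each a single exon. Hist1h4i spans chr13:22040636-22041362 (minus strand), also a single exon. Hist1h2bc, at chr13:23684199-23692908 (plus strand), has 2 exons, and Hist1h2be, at chr13:23583670-23621124 (minus strand), has 2 exon blocks. Hist2h2be lies at chr3:96221119-96223738 (plus strand) and Hist3h2a at chr11:58954685-58956830 (plus strand), each a single exon. Histone genes are near-copies of each other, so the assignment of reads to 1 member is uncertain. Stretches of 50 bases found in another annotated gene made up 100% of the coding sequence of Hist3h2a, 97.6% in Hist1h2bc, 82.8% in Hist1h2be, 72.6% in Hist1h4h, 70.3% in Hist1h4i and 21.9% in Hist1h1c, but 0% in Hist2h2be. Over whole transcripts the share was 45.8% in Hist1h4h, 31.5% in Hist3h2a, 30.1% in Hist1h2bc, 28.9% in Hist1h4i, 17.9% in Hist1h2be and 8.54% in Hist1h1c. Exons of Hist1h2be also overlap Hist1h1e and Gm11398, and those of Hist3h2a overlap Trim17 and Gm44313. None of these 4 genes had a row in the table. Trim17, on the same strand, was also the gene that held most stretches of Hist3h2a. The shares of Hist3h2a thus include bases annotated in both genes, besides near-copies elsewhere.

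The RefSeq promoter table (GRCm38.p6) held 5 of the 7 genes, Hist1h1c, Hist3h2a, Hist1h2be, Hist1h4i and Hist1h4h, with 6 start sites in all. The 130 bases before the start are shown for 3 of them, because these members shared the same stem-loop. For Hist1h2be the second start site is shown, which held the octamer. At its first start site CCAAT was found and the octamer was not. Capitals mark CCAAT boxes, which bind NF-Y, the octamer ATTTGCAT of Oct-1 (Pou2f1), known from H2B promoters, and AAACACA, the H1 box of linker histone genes, each on either strand.
Hist1h1c, chr13:23738677-23738806, plus strand: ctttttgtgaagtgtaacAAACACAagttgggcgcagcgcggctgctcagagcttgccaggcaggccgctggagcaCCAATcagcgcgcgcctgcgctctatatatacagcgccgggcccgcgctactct
Hist3h2a, chr11:58954555-58954684, plus strand: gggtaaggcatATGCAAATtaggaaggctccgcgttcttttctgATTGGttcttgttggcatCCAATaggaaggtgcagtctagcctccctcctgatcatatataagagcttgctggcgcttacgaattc
Hist1h2be, second start site, chr13:23585971-23586100, minus strand: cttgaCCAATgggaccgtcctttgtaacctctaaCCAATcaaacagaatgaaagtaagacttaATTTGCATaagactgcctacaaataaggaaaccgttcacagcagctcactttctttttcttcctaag
Over windows of 250 bases before to 50 bases after the start, CCAAT was found in 3 of the 5 genes and the octamer in 2 of them, Hist3h2a and Hist1h2be. The H1 box was found in Hist1h1c, and TATAAA in Hist1h4i at positions -137 to -132 from the start site. Only these exact letters were searched, so similar TATA sequences in other members were not counted. Of 32851 RefSeq promoters of the same length, 37.4% held CCAAT, 1.74% the octamer, 7.18% the H1 box and 13.6% TATAAA. The motifs do not overlap each other in the windows shown, and a match is no evidence of binding.

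The libraries held 13.82 to 28.72 M reads assigned to genes. Levels are given as CPM, read counts scaled by the effective library size, and tests are on the log2 scale with the Benjamini-Hochberg adjustment over 12320 genes. Ankrd35 itself had 41 and 63 reads in all in the 3D shAnkrd35 and 3D shGFP libraries, and 16 and 18 reads in the 2D shAnkrd35 and 2D shGFP libraries. In 3D its level was 0.501 ± 0.0929 CPM with shAnkrd35 and 0.597 ± 0.0546 CPM with shGFP, and in 2D it was 0.187 ± 0.137 CPM with shAnkrd35 and 0.219 ± 0.124 CPM with shGFP (SD, n = 4 per group). So few reads cannot check which hairpin a library carried, and hairpin directions below rely on the labels. Replicate 1 of 2D shAnkrd35 stood apart, with 2110 CPM of Gm23935, a transcript with ribosomal RNA-like sequence, against 239 to 313 CPM in replicates 2 to 4. It also had 52.7 CPM of Rn7sk, a small nuclear RNA without a poly(A) tail, against 1.19 to 3.00 CPM in those 3. Log2 levels were also taken relative to each gene's mean over the 16 libraries. Their slope on GC content, per 10 percentage points, was -0.29 to -0.14 with shAnkrd35 and -0.32 to -0.25 with shGFP in 3D. In 2D it was 0.28 to 0.57 with shAnkrd35 and -0.11 to 0.31 with shGFP. Tests were repeated with the trend on GC and length removed. All 6 epithelial markers (Epcam, Cdh1 and 4 keratins) were in the table, with 5260 to 8560 CPM in sum. None of the 4 lung epithelial markers (Nkx2-1, Sftpc, Sftpb, Scgb1a1) had a row. Of the fibroblast markers 4 of 8 had rows, with summed levels in 3D of 10.8 to 13.4 CPM under shAnkrd35 and 29.2 to 32.3 CPM under shGFP. Their sums in 2D were 11.7 to 14.9 CPM under shAnkrd35 and 26.0 to 29.6 CPM under shGFP. Their part in the hairpin results was not tested.

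Compared per length of exon, 1 gene stood far above the rest. Hist1h1c had a mean of 36.0 CPM per kb over the 16 libraries, followed by Hist1h2bc (9.36), Hist1h4i (4.99), Hist1h4h (3.66), Hist2h2be (2.01), Hist3h2a (0.878) and Hist1h2be (0.301 CPM per kb). Hist1h1c made up 66.1% of the summed CPM of the 7 genes with shAnkrd35 and 71.4% with shGFP in 3D, and 68.0% with shAnkrd35 and 74.0% with shGFP in 2D. The 3D sum of the 7 was 96.1 ± 4.90 CPM under shAnkrd35 and 104.5 ± 3.16 CPM under shGFP (SD, n = 4 each). The 2D sum was 69.1 ± 3.83 CPM under shAnkrd35 and 53.8 ± 2.90 CPM under shGFP. Without Hist1h1c the order of the 3D groups turned, with 32.7 ± 3.71 CPM for shAnkrd35 and 29.9 ± 2.35 CPM for shGFP. In 2D the sums without it were 22.1 ± 2.79 CPM for shAnkrd35 and 14.0 ± 1.05 CPM for shGFP.

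**Figure D3:**
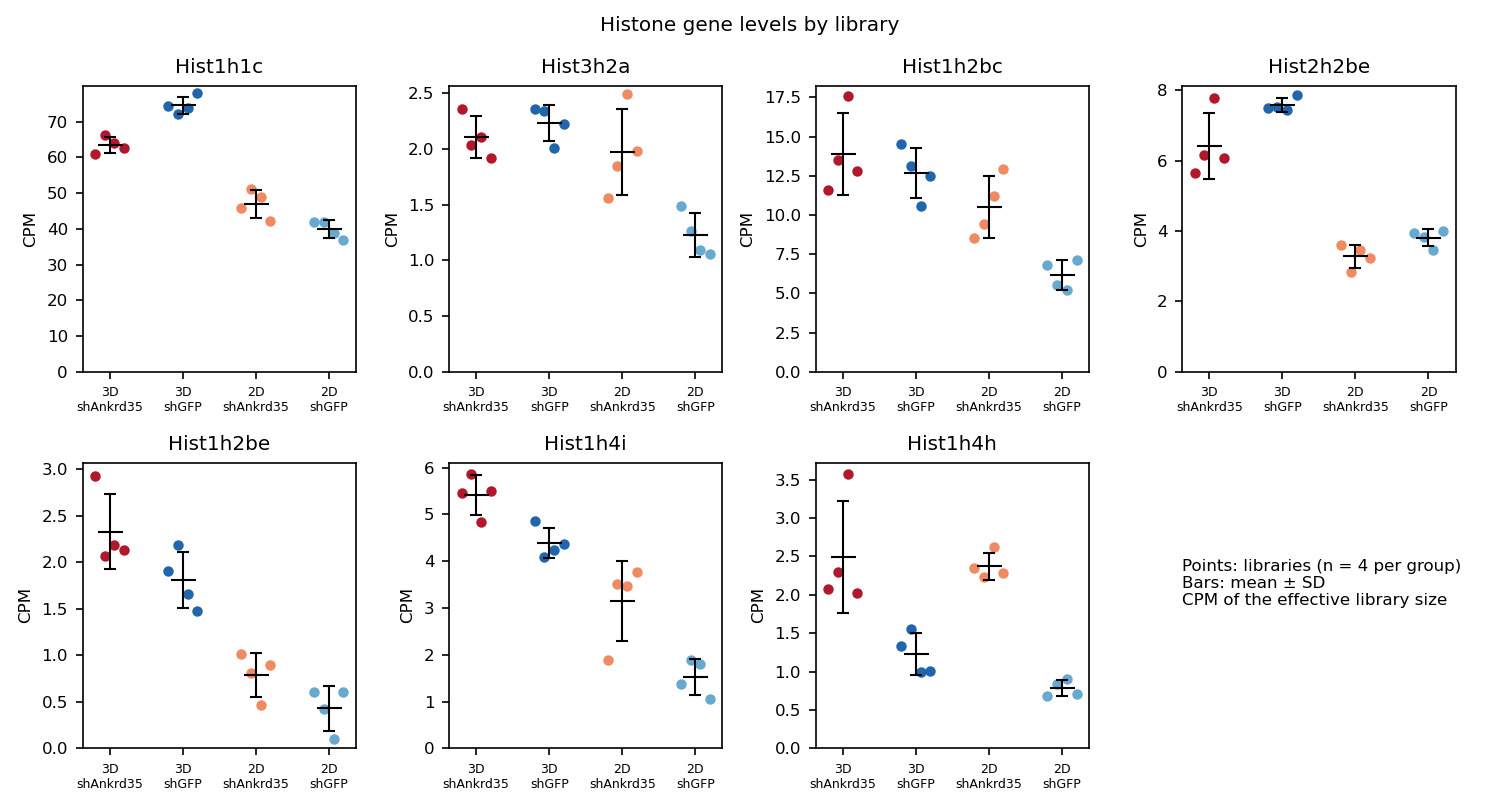
Level of each of the 7 histone genes in CPM by group, each axis starting at 0. Points are libraries (4 per group) and bars mean ± SD. With shGFP, levels in 3D lie above those in 2D in every panel, that of Hist1h2be included, which passed the filter of the table through 3D, and Hist1h4h is the gene in which the 2 shAnkrd35 groups lie above both shGFP groups.

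Hist1h1c encodes H1.2, a linker histone that binds the DNA between nucleosomes. It had 61.0, 66.2, 63.9 and 62.7 CPM in 3D shAnkrd35, against 74.3, 72.2, 73.8 and 77.9 CPM in 3D shGFP. In 2D it had 45.7, 51.1, 49.0 and 42.2 CPM with shAnkrd35, against 41.9, 42.0, 38.7 and 36.8 CPM with shGFP. Both 3D groups lay above both 2D groups, and the hairpin groups did not overlap in either growth type, although in 2D the nearest libraries were 42.2 and 42.0 CPM. The log2 fold change of 3D against 2D was 0.90 ± 0.06 with shGFP (SE, adjusted p = 8.17e-10) and 0.44 ± 0.06 with shAnkrd35 (adjusted p = 6.46e-06). Between hairpins the direction turned with growth type: Hist1h1c was lower with shAnkrd35 in 3D (log2 fold change -0.23 ± 0.06, adjusted p = 0.00678) and higher in 2D (0.24 ± 0.06, adjusted p = 0.00302). The difference between these hairpin effects, 3D minus 2D, was -0.47 ± 0.08 (adjusted p = 0.000617). With the trend on GC and length removed, the 2D value of Hist1h1c, whose exons have 55.1% GC, turned to -0.07 (adjusted p = 0.378) and the difference was -0.21 (adjusted p = 0.0951). The lower level in 3D was then -0.28 (adjusted p = 0.00308), and the change of 3D against 2D with shAnkrd35 was 0.79 (adjusted p = 4.805e-09).

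Hist3h2a encodes an H2A core histone and lies outside the large cluster on chromosome 13. It had 2.36, 2.03, 2.11 and 1.92 CPM in 3D shAnkrd35, against 2.36, 2.34, 2.01 and 2.22 CPM in 3D shGFP. In 2D the level was 1.56, 1.85, 2.49 and 1.98 CPM with shAnkrd35, against 1.49, 1.26, 1.09 and 1.06 CPM with shGFP. The 2D shGFP libraries were the lowest of the 16, and the other 3 groups overlapped one another. With shGFP, Hist3h2a was 1.78-fold higher in 3D than in 2D (log2 fold change 0.83 ± 0.16, SE, adjusted p = 0.000187). It was not called with shAnkrd35, where the log2 change was 0.11 (95% interval -0.23 to 0.44). It was higher with shAnkrd35 in 2D, by 0.64 ± 0.16 (adjusted p = 0.00235), and not called in 3D, with -0.08 (-0.41 to 0.25). The hairpin effects differed by -0.72 ± 0.22 between 3D and 2D (adjusted p = 0.0193). With 21 to 66 reads per library, and with coding sequence wholly shared with other genes, the values of Hist3h2a are among the less certain ones.

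The H2B genes encode the core histone that pairs with H2A. Hist1h2bc, the most abundant of them, had 11.6, 13.5, 17.6 and 12.8 CPM in 3D shAnkrd35, against 14.5, 13.1, 10.6 and 12.5 CPM in 3D shGFP. In 2D it had 8.51, 9.41, 11.2 and 12.9 CPM with shAnkrd35, against 6.84, 5.55, 5.19 and 7.14 CPM with shGFP. As for Hist3h2a, the 2D shGFP libraries were the lowest and the other 3 groups overlapped. The change of Hist1h2bc from growth in 3D was 1.03 ± 0.15 with shGFP (log2 fold change ± SE, adjusted p = 1.40e-05) and 0.40 ± 0.15 with shAnkrd35 (adjusted p = 0.0258). The second call was lost without replicate 1 or 2 of 2D shAnkrd35 (adjusted p = 0.0822 and 0.0697) or without replicate 3 of 3D shAnkrd35 (adjusted p = 0.103). Under quantile normalization it was lost too (0.24, adjusted p = 0.154). With shAnkrd35 it was higher in 2D by 0.75 ± 0.15 (adjusted p = 0.000517), and in 3D the change was 0.12 (95% interval -0.20 to 0.44), which was not called. The difference of the hairpin effects was -0.63 ± 0.21 (adjusted p = 0.0306). It was no longer called without any 1 of 9 libraries, with values from -0.62 to -0.53 in those fits, or with the trend on GC and length removed (-0.43, adjusted p = 0.0631).

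Hist2h2be, a single-exon H2B gene on chromosome 3, was the member with no stretch shared with another gene. Its annotated transcript had 2192 bases past the stop codon, no match to the stem-loop, and an AATAAA signal in the last 50 bases. The placing of Hist2h2be among the replication-dependent genes thus rests on its symbol, and it stays in the counts and medians by that rule. It had 5.66, 6.17, 7.79 and 6.08 CPM in 3D shAnkrd35, against 7.49, 7.52, 7.45 and 7.87 CPM in 3D shGFP. In monolayer it had 3.59, 2.85, 3.46 and 3.22 CPM with shAnkrd35, against 3.94, 3.82, 3.47 and 4.00 CPM with shGFP. All 8 libraries of 3D lay above all 8 of 2D, and the hairpin groups overlapped in both growth types. Hist2h2be was higher in 3D by 0.95 ± 0.11 with shAnkrd35 (log2 scale, SE, adjusted p = 7.98e-07) and 0.98 ± 0.11 with shGFP (adjusted p = 4.69e-07). The hairpin changes were negative and not called: -0.25 in 3D (95% interval -0.47 to -0.02, adjusted p = 0.0954) and -0.21 in 2D (-0.44 to 0.01, adjusted p = 0.0952). Without replicate 3 of 3D shAnkrd35, the library with 7.79 CPM, the 3D value of Hist2h2be was -0.34 and was called (adjusted p = 0.0200).

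Hist1h2be was the least abundant member per length. It had 2.93, 2.07, 2.18 and 2.13 CPM in 3D shAnkrd35, against 1.91, 2.18, 1.66 and 1.48 CPM in 3D shGFP. In 2D it had 1.01, 0.808, 0.461 and 0.891 CPM with shAnkrd35, against 0.604, 0.419, 0.0952 and 0.608 CPM with shGFP, where the libraries held 15, 8, 2 and 12 reads. All 3D libraries lay above all 2D libraries, and the hairpin groups overlapped in both growth types. The log2 fold change of 3D against 2D was 1.49 ± 0.35 with shAnkrd35 (SE, adjusted p = 0.00105) and 2.03 ± 0.35 with shGFP (adjusted p = 6.74e-05). The gene had at least 1 CPM, prior included, in all 8 libraries of 3D and in 1 of the 8 of 2D, so it passed the filter of the deposited table through 3D, and a difference of this direction was built into its presence. In 2D it was higher with shAnkrd35 by 0.89 ± 0.35 (adjusted p = 0.0361). Without replicate 3 of 2D shGFP, the library with 2 reads of Hist1h2be, this was 0.45 (adjusted p = 0.130), and the call was also lost without replicate 1, 2 or 4 of 2D shAnkrd35 (adjusted p = 0.0813, 0.0691 and 0.0792). In 3D the change was 0.35 (95% interval -0.38 to 1.08) and was not called.

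The H4 genes encode the core histone that pairs with H3 at the centre of the nucleosome. Hist1h4i had 5.46, 5.87, 4.84 and 5.51 CPM in 3D shAnkrd35, against 4.85, 4.09, 4.24 and 4.37 CPM in 3D shGFP. Its 2D levels were 1.89, 3.52, 3.46 and 3.76 CPM with shAnkrd35, against 1.37, 1.88, 1.81 and 1.06 CPM with shGFP. The groups fell in the order 3D shAnkrd35, 3D shGFP, 2D shAnkrd35 and 2D shGFP, with the 3D groups overlapping and replicate 1 of 2D shAnkrd35 (1.89 CPM) barely above the highest 2D shGFP library (1.88 CPM). On the log2 scale Hist1h4i was higher in 3D by 0.81 ± 0.20 with shAnkrd35 (SE, adjusted p = 0.00166) and 1.50 ± 0.20 with shGFP (adjusted p = 4.54e-06). With shAnkrd35 it was higher in 2D by 0.99 ± 0.20 (adjusted p = 0.000517), and in 3D the change of 0.30 (95% interval -0.12 to 0.72) was not called. The hairpin effects differed by -0.69 ± 0.28 (adjusted p = 0.0648), which was not called, and by -0.91 (adjusted p = 0.00334) without replicate 1 of 2D shAnkrd35. With the trend on GC and length removed, the 2D value of Hist1h4i was 0.60 (adjusted p = 0.00812) and the difference -0.37 (adjusted p = 0.274).

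Hist1h4h was the member with separate hairpin groups in both growth types and a higher level with shAnkrd35 in each. It had 2.08, 2.30, 3.58 and 2.03 CPM in 3D shAnkrd35, against 1.34, 1.56, 1.003 and 1.01 CPM in 3D shGFP. In 2D it had 2.35, 2.23, 2.63 and 2.28 CPM with shAnkrd35, against 0.684, 0.838, 0.904 and 0.709 CPM with shGFP. Every shAnkrd35 library lay above every shGFP library, and the shAnkrd35 groups of the growth types overlapped. With shAnkrd35 it was 1.94-fold higher in 3D (log2 fold change 0.96 ± 0.19, SE, adjusted p = 0.00118) and 2.83-fold higher in 2D (1.50 ± 0.19, adjusted p = 7.51e-06). These calls kept their direction and stayed past the threshold under every alternative that tested the gene, with 0.78 to 1.07 in 3D and 1.03 to 1.58 in 2D. Growth in 3D went with 0.58 ± 0.19 with shGFP (adjusted p = 0.0143), a call lost without replicate 2 of 3D shGFP (0.46, adjusted p = 0.0556) and under quantile normalization (0.22, adjusted p = 0.323). With shAnkrd35 the growth change was 0.04 (95% interval -0.37 to 0.44), which turned to -0.25 under quantile normalization (adjusted p = 0.252) and was 0.48 (adjusted p = 0.0292) with the trend on GC and length removed. Hist1h4h had the highest GC content of the members, 57.9%. In the 2D shGFP libraries it was under 1 CPM, with the prior included, in all 4.

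**Figure D4:**
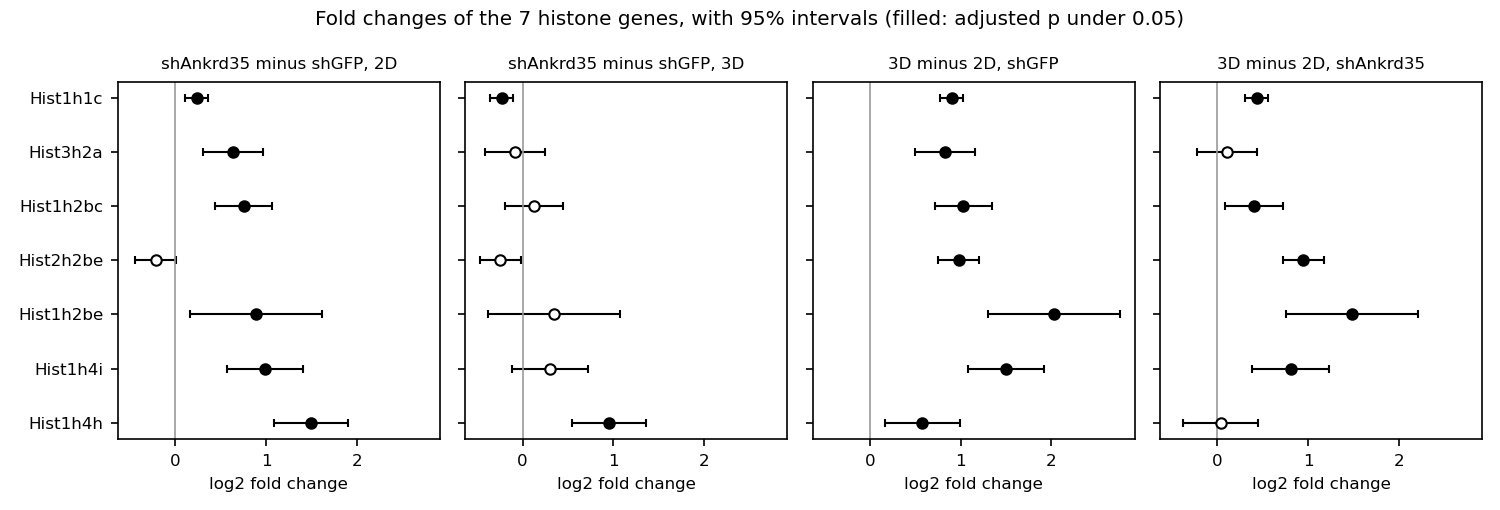
Log2 fold changes of the 7 histone genes (horizontal axis) in the 4 comparisons, with 95% intervals. Filled points passed an adjusted p of 0.05. With shGFP the points lie right of 0 for 3D against 2D, that of Hist1h2be by its way into the table, while in 3D the hairpin points lie on both sides of 0.

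Hist1h2be passed the filter of the table through its 3D libraries, so it is left out of the counts of 3D against 2D, a choice made after seeing the data. With shGFP, the other 6 genes were all higher in 3D than in 2D, from 0.58 for Hist1h4h to 1.50 for Hist1h4i on the log2 scale, with a median of 0.94 against 0.03 for all genes tested. Of all genes, 35.2% were higher and 32.1% lower in this comparison. The groups did not overlap for any of the 6, against 33.3% of all genes that were higher without overlap. With the trend on GC and length removed, 6 of the 6 were called higher. With shAnkrd35, 4 of the 6 were higher in 3D and 2 (Hist3h2a and Hist1h4h) were not called, against 34.4% of all genes called higher and 36.0% called lower, with a median of 0.42 against -0.02. Without overlap between groups 3 were higher, against 29.9% of all genes. With the trend on GC and length removed, 5 of the 6 were called. Since the table holds only genes above a limit on low values, these counts describe the 7 genes in the table.

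In 2D, 6 of the 7 genes were higher with shAnkrd35 than with shGFP and none was lower, against 29.0% of all genes called higher and 28.8% called lower. The median was 0.75 against 0.01 for all genes, and 5 genes did not overlap between groups, against 22.3% of all genes. With the trend on GC and length removed, 5 were called higher, since Hist1h1c no longer was. In 3D, 1 gene was higher (Hist1h4h), 1 lower (Hist1h1c) and 5 were not called, against 15.0% of all genes called higher and 14.6% called lower. The median there was 0.12 against 0.00 for all genes. Of the 5, Hist1h2be, Hist1h4i and Hist1h2bc had intervals that reach changes of 1.08, 0.72 and 0.44.

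The hairpin effect was smaller in 3D than in 2D, or turned, for 3 genes (Hist3h2a, Hist1h2bc and Hist1h1c), against 18.6% of all genes with a lower effect. No member had a higher effect, against 17.1% of all genes, and the median difference was -0.54 against 0.00. The 4 that were not called had differences of -0.69 (Hist1h4i), -0.54 (Hist1h4h), -0.54 (Hist1h2be) and -0.03 (Hist2h2be). That of Hist1h2be was -0.10 (adjusted p = 0.842) without replicate 3 of 2D shGFP, and that of Hist1h4h was -0.23 (adjusted p = 0.519) with the trend on GC and length removed. Only Hist3h2a was called after the trend on GC and length was removed (-0.59, adjusted p = 0.0442, and 0.0605 with replicate numbers as a block as well). This difference uses the same libraries as the comparisons above and adds no independent measurement.

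The members did not move as 1 block. Over the 16 libraries, the correlation of each gene with the mean of the other members was 0.93 for Hist1h2bc, 0.88 for Hist1h4i, 0.86 for Hist3h2a, 0.85 for Hist1h1c, 0.83 for Hist1h2be, 0.65 for Hist2h2be and 0.51 for Hist1h4h. These describe libraries that share groups, and no p is given. Hist1h2be, whose direction in 3D against 2D was built into its presence, was kept in the means of the other members. Within H4, 3D libraries held 0.470 ± 0.180 reads of Hist1h4h per read of Hist1h4i under shAnkrd35 and 0.281 ± 0.0696 under shGFP (SD, n = 4 each). The 2D libraries held 0.811 ± 0.296 under shAnkrd35 and 0.528 ± 0.0962 under shGFP. Within H2B, 3D libraries held 2.15 ± 0.0919 reads of Hist1h2bc per read of Hist2h2be under shAnkrd35 and 1.67 ± 0.222 under shGFP, and 2D libraries 3.23 ± 0.673 under shAnkrd35 and 1.62 ± 0.168 under shGFP. In 2D the H2B ratio did not overlap between hairpins, with 2.37 to 4.02 for shAnkrd35 and 1.45 to 1.78 for shGFP. Genes of the table whose pattern over the 16 libraries was among the most like the members' mean were Ugt2b35 (Pearson r = 0.987), Cemip, Cpe, D630039A03Rik, Gsta4, Prg4 and Tle2 (r = 0.980). All 7 had their highest mean in 3D shAnkrd35 and their lowest in 2D shGFP, such as Cpe, a carboxypeptidase, with 544 CPM under shAnkrd35 and 470 CPM under shGFP in 3D, and 369 CPM under shAnkrd35 and 245 CPM under shGFP in 2D. They were picked for likeness to the members' mean, Hist1h2be included, so a like order of groups follows from the pick. Ugt2b35 had means of 2.87 and 2.08 CPM in 3D under shAnkrd35 and shGFP. Its 2D means were 0.462 and 0.0358 CPM, so its place in the table rested mostly on 3D.

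Genes of DNA replication, many of which peak around S phase, were mostly higher with shAnkrd35 in 2D, while in 3D more of them were lower than higher with either hairpin. Of 38 such genes, 22 (57.9%) were higher and 1 (2.63%) lower with shAnkrd35 in 2D (median 0.21), where 29.0% of all genes were higher and 28.8% lower, among them the origin licensing factor Cdc6 (0.67 ± 0.06, SE, adjusted p = 1.53e-07) and the ligase Lig1 (0.50 ± 0.05). In 3D, 5 (13.2%) were higher and 4 (10.5%) lower with shAnkrd35 (median 0.02), against 15.0% and 14.6% of all genes. For 3D against 2D with shGFP, 7 (18.4%) were higher and 15 (39.5%) lower (median -0.11), against 35.2% and 32.1% of all genes, with the licensing factor Cdt1 at 56.8 CPM in 3D and 96.4 CPM in 2D (-0.76 ± 0.06) and the helicase subunit Mcm2 at 175.5 CPM in 3D and 256.9 CPM in 2D (-0.55 ± 0.05). The ribonucleotide reductase subunit Rrm2 was among those higher (0.64 ± 0.06). For 3D against 2D with shAnkrd35, 5 (13.2%) were higher and 29 (76.3%) lower (median -0.31), against 34.4% and 36.0% of all genes, with Cdt1 (-0.82 ± 0.06) and Cdc6 (-0.69 ± 0.06) among the lower. The hairpin effect was lower in 3D than in 2D for 18 of these genes (47.4%) and higher for 2 (5.26%; median -0.24), against 18.6% and 17.1% of all genes, with Rrm2 (-0.59 ± 0.09) and Cdc6 (-0.53 ± 0.09) among the lower.

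**Figure D5:**
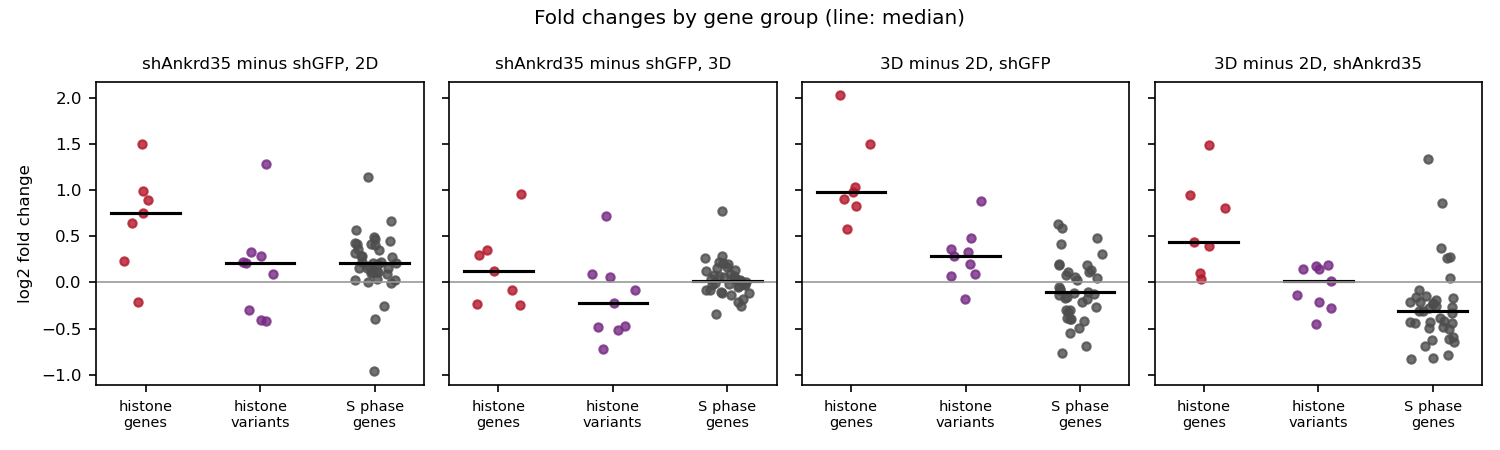
Log2 fold changes (vertical axis) of the 7 histone genes, 9 histone variant genes and 38 S phase genes in the 4 comparisons. Points are genes and lines are medians. For 3D against 2D with shGFP the histone genes other than Hist1h2be lie at 0.58 to 1.50, while the S phase genes have a median of -0.11.

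Most replication-independent histone variants have ordinary polyadenylated messages and are made outside S phase too. Whether this holds for each gene listed here, H2afx among them, was not tested. Of 9 variant genes tested, 5 (55.6%) were higher and 1 (11.1%) lower in 3D with shGFP (median 0.29), against 35.2% and 32.1% of all genes, with the centromeric H3 Cenpa (0.88 ± 0.07, SE), H3f3a (0.49 ± 0.06) and H3f3b (0.36 ± 0.05), which encode H3.3, and the linker histone H1f0 (0.20 ± 0.05) among the higher. In 3D against 2D with shAnkrd35, 4 (44.4%) were higher and 3 (33.3%) lower, against 34.4% and 36.0% of all genes, with the H2A.Z gene H2afz at 336.1 CPM in 3D and 388.7 CPM in 2D (-0.21 ± 0.05). With shAnkrd35 in 2D, 5 (55.6%) were higher and 3 (33.3%) lower, against 29.0% and 28.8% of all genes. H2afj, an H2A variant, was the gene that rose most (1.29 ± 0.24), while H1f0 (438.1 ± 13.0 CPM with shAnkrd35 and 585.4 ± 27.3 CPM with shGFP, SD, n = 4 each) and H3f3b (-0.30 ± 0.05) fell. With shAnkrd35 in 3D, 1 (11.1%) was higher and 5 (55.6%) lower, against 15.0% and 14.6% of all genes, including H3f3b (-0.51 ± 0.05), H1f0 (-0.47 ± 0.05), Cenpa (-0.48 ± 0.07) and the DNA damage variant H2afx (-0.72 ± 0.13). The hairpin effect was lower in 3D than in 2D for 5 of the 9 (55.6%) and higher for 0, against 18.6% and 17.1% of all genes, Cenpa at -0.69 ± 0.10 having the smallest p.

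Of 42 genes for the processing, export and decay of histone messages, 18 (42.9%) were higher and 5 (11.9%) lower in 3D with shGFP (median 0.16), against 35.2% and 32.1% of all genes. Srrt, which links the cap-binding complex to 3′ end processing, was higher (0.64 ± 0.05, SE), and Lsm11, a U7-specific subunit, was lower, with 12.1 CPM in 3D and 24.6 CPM in 2D (-1.02 ± 0.09). With shAnkrd35, 17 (40.5%) were higher and 11 (26.2%) lower in 3D, against 34.4% and 36.0% of all genes, Lsm11 again among the lower (-0.66 ± 0.09). Between hairpins, 4 (9.52%) were called each way in 3D, against 15.0% higher and 14.6% lower of all genes. In 2D 13 (31.0%) were called each way, near the shares of all genes (29.0% and 28.8%), and the decapping enzyme Dcp2 had 21.9 CPM with shAnkrd35 and 60.1 CPM with shGFP (-1.46 ± 0.18). The hairpin effect differed in 9 (21.4%) each way, against 17.1% and 18.6% of all genes. Of 20 genes for cleavage and polyadenylation at ordinary poly(A) signals, 9 were higher and 4 lower in 3D with shGFP, against 35.2% and 32.1% of all genes, and the poly(A) binding protein Pabpc1 had 2130 CPM in 3D and 3764 CPM in 2D (-0.82 ± 0.07). With shAnkrd35, 9 of the 20 were higher and 5 lower in 3D, against 34.4% and 36.0% of all genes. The 3′ end factors Pcf11 (1.28 ± 0.14) and Cpsf6 (0.91 ± 0.10) were among the higher. The hairpin effect differed upwards in 4 of the 20 and downwards in 3, against 17.1% and 18.6% of all genes. Between hairpins, 2 were higher and 2 lower in 3D, and 7 were higher and 7 lower in 2D. The hairpin counts come to 10.0% each way in 3D and 35.0% each way in 2D, against 15.0% and 14.6% of all genes in 3D and 29.0% and 28.8% in 2D.

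Of 23 histone chaperone genes, 8 (34.8%) were higher and 8 lower in 3D with shGFP, near the 35.2% and 32.1% of all genes. With shAnkrd35 it was 10 (43.5%) each way, against 34.4% and 36.0%. The lower ones included Ssrp1, a subunit of the FACT complex (257.9 CPM in 3D and 432.1 CPM in 2D with shGFP, -0.74 ± 0.04, SE), and Chaf1a, a subunit of chromatin assembly factor 1 (-0.66 ± 0.05), while Nasp, a chaperone of H3 and H4, was higher (0.60 ± 0.06). Between hairpins, 2 (8.70%) were called each way in 3D, against 15.0% and 14.6% of all genes. In 2D 7 (30.4%) were higher and 5 (21.7%) lower, against 29.0% and 28.8%, with Chaf1b (0.55 ± 0.05) among the higher. The effect was higher in 3D for 4 (17.4%) and lower for 7 (30.4%), against 17.1% and 18.6%. Of 22 cell cycle regulators of histone genes, 8 (36.4%) were higher and 3 (13.6%) lower in 3D with shGFP, against 35.2% and 32.1% of all genes, and 5 (22.7%) each way with shAnkrd35, against 34.4% and 36.0%. With shGFP, cyclin A2 (Ccna2) was at 94.7 CPM in 3D and 47.9 CPM in 2D (0.99 ± 0.06), the inhibitor Cdkn1a at 114.3 CPM in 3D and 300.2 CPM in 2D (-1.39 ± 0.06), and E2f1 at 34.1 CPM in 3D and 62.3 CPM in 2D (-0.87 ± 0.06). Between hairpins, 1 (4.55%) was higher and 3 (13.6%) lower in 3D, against 15.0% and 14.6% of all genes. In 2D 9 (40.9%) were higher and 7 (31.8%) lower, against 29.0% and 28.8%, with cyclin E1 (Ccne1, 0.81 ± 0.10) and the phosphatase Cdc25a (0.66 ± 0.06) among the higher. The effect was higher in 3D for 3 (13.6%) and lower for 8 (36.4%), against 17.1% and 18.6%, Ccne1 among the lower (-0.70 ± 0.13).

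Some genes whose RNAs are known to lack a poly(A) tail were in the table. How reads were counted is not given, so their values may include reads of other transcripts from the same place. Of 20 listed, 6 were tested. In 3D against 2D with shGFP, 3 were higher and 0 lower: the small nucleolar RNAs Snora2b (1.43 CPM in 3D and 0.693 CPM in 2D, 1.09 ± 0.36, SE), Snora28 (2.33 CPM in 3D and 1.05 CPM in 2D, 1.09 ± 0.30) and Snord104 (5.34 CPM in 3D and 3.17 CPM in 2D, 0.74 ± 0.19). With shAnkrd35, 2 (33.3%) were higher in 3D and 0 lower, against 34.4% and 36.0% of all genes. These were again Snora28 (1.42 ± 0.30) and Snora2b (1.25 ± 0.36). Both passed the filter of the table through 3D, as Hist1h2be did. Their direction in 3D against 2D was thus built into their presence with either hairpin, shGFP included. Snord104 was above 1 CPM in all libraries, so its call with shGFP was not built in this way. Between hairpins, none was called in 3D, against 15.0% higher and 14.6% lower of all genes. In 2D Snord104 was higher (0.69 ± 0.19) and Snora28 lower (-0.79 ± 0.30), or 16.7% each way, against 29.0% and 28.8%. The hairpin effect was lower in 3D for Snord104 alone (-0.70 ± 0.27, adjusted p = 0.0494), or 16.7%, against 18.6% of all genes. It was higher for none, against 17.1% of all genes. In 3D against 2D with shGFP the other 3 of the 6 were not called: Gm24187 at -0.45 (adjusted p = 0.338), Rn7sk at 0.40 (adjusted p = 0.697) and Gm23935 at 0.16 (adjusted p = 0.7925). The part of such RNA in the histone values was not tested. In replicate 1 of 2D shAnkrd35, the library with 52.7 CPM of Rn7sk, the histone genes ranked from the highest to the lowest of the 4 libraries: it was the highest for Hist1h2be and Hist2h2be, and the lowest for Hist1h2bc, Hist1h4i and Hist3h2a.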

How the data were processed

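RNA of 16 libraries was sequenced after oligo(dT) enrichment, per the labels' protocols. Per the submitters' processing notes, the tools were edgeR, STAR 2.5.1b and Trimmomatic 0.38, and the build was mm10. How reads were counted, with what use of strand and of reads that match several genes, is not given in the sources used here, nor is the filter applied. The authors deposited log2 CPM, scaled to an effective library size after adding a prior that averages 2 reads, as read from the values. Taking off the prior gave whole reads in 100% of values (tolerance 0.01), and from them CPM. Every gene but Ankrd35 had at least 1 CPM, prior included, in 8 or more libraries.

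Tests were made with limma 3.58.1 (R 4.3.3, trend and robust moderation, statmod 1.5.0) on the deposited log2 values, in a model of 4 group means over 16 libraries. The 12320 genes at 1 CPM or more in at least 4 libraries were tested, adjusted over genes within each of 5 contrasts, and called at an adjusted p under 0.05. The prior makes fold changes of low genes too small. The design had allowed for CPM or counts too. Intervals are 95% and use the moderated spread. The script was tested on simulated data. In none of the pairs of groups compared did every same-numbered pair of libraries correlate above 0.1, so no pairing was used. GENCODE M21 matched 12218 symbols. All 7 members are named, with up to 4 genes of each list and comparison by smallest p, and the 8 most alike genes, of which 1 is not reported here. The members, lists and tests were chosen with earlier results of these data known.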

Additional observations from a re-analysis of the deposited data

Results flagged for a closer look

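In 2 of the 28 sets of 4 libraries (7 histone genes in 4 groups), 1 library lay far from the other 3 of its group. Chance gives about 1 in 20 such sets. Hist1h2be had 2.93 CPM in replicate 1 of 3D shAnkrd35, against 2.07 to 2.18 CPM in the other 3. Hist1h4i had 1.89 CPM in replicate 1 of 2D shAnkrd35, against 3.46 to 3.76 CPM in the other 3. That library is also the one with 2110 CPM of Gm23935, and the part of this in Hist1h4i was not tested.

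For 3 genes the hairpin effect differed between growth types by the test of the difference, 3D minus 2D. Of all genes, 18.6% had a lower effect and 17.1% a higher one. The differences were -0.72 for Hist3h2a, -0.63 for Hist1h2bc and -0.47 for Hist1h1c on the log2 scale. With the trend on GC and length removed, Hist3h2a was still called (adjusted p = 0.0442), but Hist1h2bc (0.0631) and Hist1h1c (0.0951) were not. With the replicate block as well, Hist3h2a was not called either (adjusted p = 0.0605). Hist1h1c was lower with shAnkrd35 in 3D and higher in 2D, with no overlap of the hairpin groups in either. With the trend removed, its 2D value was -0.072 (adjusted p = 0.378).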

How the results depend on the processing

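Alternatives changed the scaling, the filter, the moderation, the libraries fitted, or the trend on GC and length, and left out each library in turn. Of the gene values, 302 stayed on their side of the threshold with the same direction under the settings that keep all libraries, 8 lost the call, 4 gained one and 9 turned direction. With 1 library left out these numbers were 535, 17, 4 and 4. A mean of at least 5 CPM left 3 histone genes to test, so that 3 were higher in 3D with shGFP, 3 in 3D with shAnkrd35, 2 with shAnkrd35 in 2D and 0 with shAnkrd35 in 3D. With shAnkrd35 in 3D, 2 were higher when only the libraries compared were fitted (Hist1h4i joined, adjusted p = 0.0358), and 2 were lower with voom weights (Hist2h2be joined, adjusted p = 0.0245). With the trend on GC and length removed, the difference of hairpin effects was lower for 1 gene, and for 0 with the replicate block as well (Hist3h2a then had -0.59, adjusted p = 0.0605). The cause of these changes was not tested. Leaving out Hist1h2be, chosen after seeing the data, gave 6 higher in 3D with shGFP and 4 with shAnkrd35.

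With 1 library left out, the counts called higher were 5 to 6 (hairpin, 2D), 1 in each fit (hairpin, 3D), 6 to 7 (3D, shGFP) and 4 to 5 (3D, shAnkrd35). Those called lower were 1 to 2 in 3D between hairpins and 2 to 4 for the difference of effects. The counts of 3D against 2D in these fits include Hist1h2be, whose direction was built into its presence in the table. Without Hist1h1c the 3D sum was 32.67 CPM under shAnkrd35 and 29.93 under shGFP, and the 2D sum 22.09 under shAnkrd35 and 13.96 under shGFP. Scaled by the reads assigned to genes in place of the effective library size, the 3D shGFP sum was 109.1.

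Values that turned direction were not called. They were Hist1h1c between hairpins in 2D with the trend on GC and length removed (-0.072, adjusted p = 0.378, and 0.416 with the block). Hist3h2a between hairpins in 3D turned to 0.0074 and the difference of Hist2h2be to 0.045 in the same fits, with and without the block. The difference of Hist2h2be was 0.012, 0.013 and 0.025 without replicate 3 of 2D shGFP, replicate 1 of 2D shAnkrd35 and replicate 1 of 3D shAnkrd35, in a range from -0.13 to 0.025 with 1 library left out. In 3D against 2D with shAnkrd35, Hist1h4h turned to -0.25 under quantile normalization, -0.0095 with voom and -0.15 without replicate 3 of 3D shAnkrd35 (range -0.15 to 0.12 with 1 library left out), and Hist3h2a to -0.21 under quantile normalization.

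Same-numbered libraries of different groups correlated at -0.483 to 0.204 in their deviations (8 of 24 pairs over 0.1). Between 3D shAnkrd35 and 2D shGFP, which were not compared, all 4 pairs were over 0.1 (0.12 to 0.186), and in each pair of groups compared at most 1 was, so the numbers were not taken as pairs. With the replicate block alone, the counts were as without it. In 3D against 2D, 7 were higher with shGFP and 5 with shAnkrd35, each with Hist1h2be, whose direction was built into its presence. Between hairpins, 6 were higher with shAnkrd35 in 2D, 1 was higher and 1 lower in 3D, and 3 were lower for the difference. In the main fit, 35.2% of all genes were higher in 3D with shGFP and 34.4% with shAnkrd35. Between hairpins, 29.0% of all genes were higher in 2D, 15.0% higher and 14.6% lower in 3D, and 18.6% lower for the difference. Depth limits the low genes: Hist1h2be had 2 to 72 reads per library and Hist1h4h 14 to 61.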
